A study of Mus musculus with 8 samples.

Results

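The mitotic spindle is the microtubule machine that pulls duplicated chromosomes apart, and the genes studied here encode its main parts. They were 48 M phase genes, named by symbol and listed by function, but chosen with earlier results of these data known. They cover mitotic kinases, the spindle assembly checkpoint, the kinetochore, the chromosomal passenger complex, spindle motors and the central spindle. Separase with its inhibitor, and proteins that shape the mitotic chromosome, complete the set. All 48 were found among the 55414 genes listed in the count files, and all 48 passed the filter on low counts that left 16778 genes for testing. The RNAseq libraries came from neutrophils sorted from mouse spleen, 4 animals being WT and 4 *Cxcr2-/-*, and each animal gave 1 library. All animals were 10 weeks old and on the FVB background. The *Cxcr2-/-* mice lack the chemokine receptor CXCR2 in every cell of the body and not in neutrophils alone, and they were compared with WT FVB mice. The sort kept CD45+ CD11b+ Ly6G+ cells without F4/80, after positive selection for CD11b.

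In a dividing cell, Aurora A, PLK1 and their partners build the spindle poles, kinetochores couple chromosomes to microtubules, and the checkpoint holds back CDC20 until every kinetochore is attached. CDC20 then activates the anaphase-promoting complex, securin is destroyed, separase cuts cohesin, and the central spindle directs the split of the cell. Neutrophil precursors divide in the bone marrow, and to a lesser extent in the mouse spleen, whereas mature neutrophils no longer divide. Many genes of this program carry in their promoters a CHR element, the sequence TTTGAA, which is bound by the DREAM and MYB-MuvB complexes, often downstream of CCAAT boxes bound by NF-Y.

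The promoters of 5 members are shown because they hold both elements close to the start and because they belong to members that moved in opposite directions. The sequences are those of RefSeq (GRCm38.p6), from 100 bases before the transcription start to 40 bases from it on, written 5′ to 3′ along the gene. All 5 genes lie on the minus strand. Capitals mark TTTGAA or its variant TTCGAA and CCAAT, or their reverse complements.
Cdc20, chr4:118437304-118437443: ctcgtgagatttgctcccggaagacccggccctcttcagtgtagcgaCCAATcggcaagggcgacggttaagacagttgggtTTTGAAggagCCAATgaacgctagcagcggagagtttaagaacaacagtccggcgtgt
Top2a, chr11:99024150-99024289: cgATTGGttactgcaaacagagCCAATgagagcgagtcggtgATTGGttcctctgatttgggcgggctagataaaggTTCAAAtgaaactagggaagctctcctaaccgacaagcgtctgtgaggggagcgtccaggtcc
Cenpf, chr1:189688047-189688186: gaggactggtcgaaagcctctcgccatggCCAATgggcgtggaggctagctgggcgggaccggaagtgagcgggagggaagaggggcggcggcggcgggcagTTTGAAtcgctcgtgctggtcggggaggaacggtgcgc
Racgap1, chr15:99651617-99651756: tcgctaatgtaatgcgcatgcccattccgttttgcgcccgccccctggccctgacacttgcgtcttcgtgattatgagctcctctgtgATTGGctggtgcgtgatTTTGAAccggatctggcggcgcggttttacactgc
Kif23, chr9:61946760-61946899: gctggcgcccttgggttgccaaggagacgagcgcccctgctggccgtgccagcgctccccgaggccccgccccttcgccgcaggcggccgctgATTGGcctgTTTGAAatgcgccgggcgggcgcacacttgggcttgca

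The TTTGAA of *Cdc20* begins 18 bases before the start and that of *Top2a* 23 bases before it, on the opposite strand. In *Cenpf* and *Kif23* it begins at base 3 of the transcript, and in *Racgap1* at base 6. A window of 300 bases, from 250 before the start to 50 from it on, was held for 42 of the 48 members, 3 of them with more than 1 window. On either strand, 30 of these 42 members held TTTGAA (71.4%), against 20.2% of all 27025 genes with such a window. Between 60 bases before the start and 50 from it on, 27 of the 42 members held it (64.3%), against 6.36% of all genes. CCAAT was found in 28 of 42 members (66.7%, against 41.1%), and both motifs in 25 (59.5%, against 7.97%). The variant TTCGAA was in 3 members (7.14%, against 1.80%), and an E2F site spelled TTTGGCGC or TTTCGCGC in 2 (4.76%, against 0.929%). These are matches of letters, read without any binding data.

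The labels were checked first on the deleted gene. *Cxcr2* was at 1719 to 2252 CPM (counts relative to library size, TMM-scaled) in WT and at 12.9 to 20.7 CPM in *Cxcr2-/-* libraries (log2 fold change -6.84). Counts on genes ranged from 34220182 to 46233555 per library, and the members took between 48 and 22931 counts per gene and library. Reads that the counting assigned to no annotated feature were 31.4% to 41.5% of the WT entries and 26.7% to 31.9% of the *Cxcr2-/-* entries. Where these reads lie was not examined, and their part in the results below was not tested. The 4 mice of a group differed from each other by more than sampling noise.

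Most of the mitotic program was higher in *Cxcr2-/-* spleen neutrophils. Of the 48 members, 45 were called higher, 2 were called lower (*Kif23* and *Pttg1*) and 1 was not called (*Smc4*), where a call needed an adjusted p under 0.05 (edgeR's quasi-likelihood test, Benjamini-Hochberg over all genes tested) and a change of at least 1.5-fold. Of all 16778 genes tested, 15.7% were called higher and 15.7% were called lower. As many genes were thus called higher as lower (2628 each), whereas 38.0% of the called genes were higher under upper-quartile scaling, which shifted the median of all genes by -0.12 on the log2 scale. The median log2 fold change, *Cxcr2-/-* over WT, was 1.85 over the 48 members and 0.01 over all genes tested. Among the 45 higher members it ran from 0.60 for *Cenpa* to 2.25 for *Kif20a*, with standard errors (SE) from 0.09 to 0.19. At least a 2-fold increase was seen for 41 members, against 8.03% of all genes tested. For all 48 members the 4 WT and the 4 *Cxcr2-/-* values did not overlap, which was also true of 41.6% of the genes tested. More dividing cells among those sorted, and more mitotic RNA in each cell, cannot be told apart in bulk RNA.

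**Figure D1:**
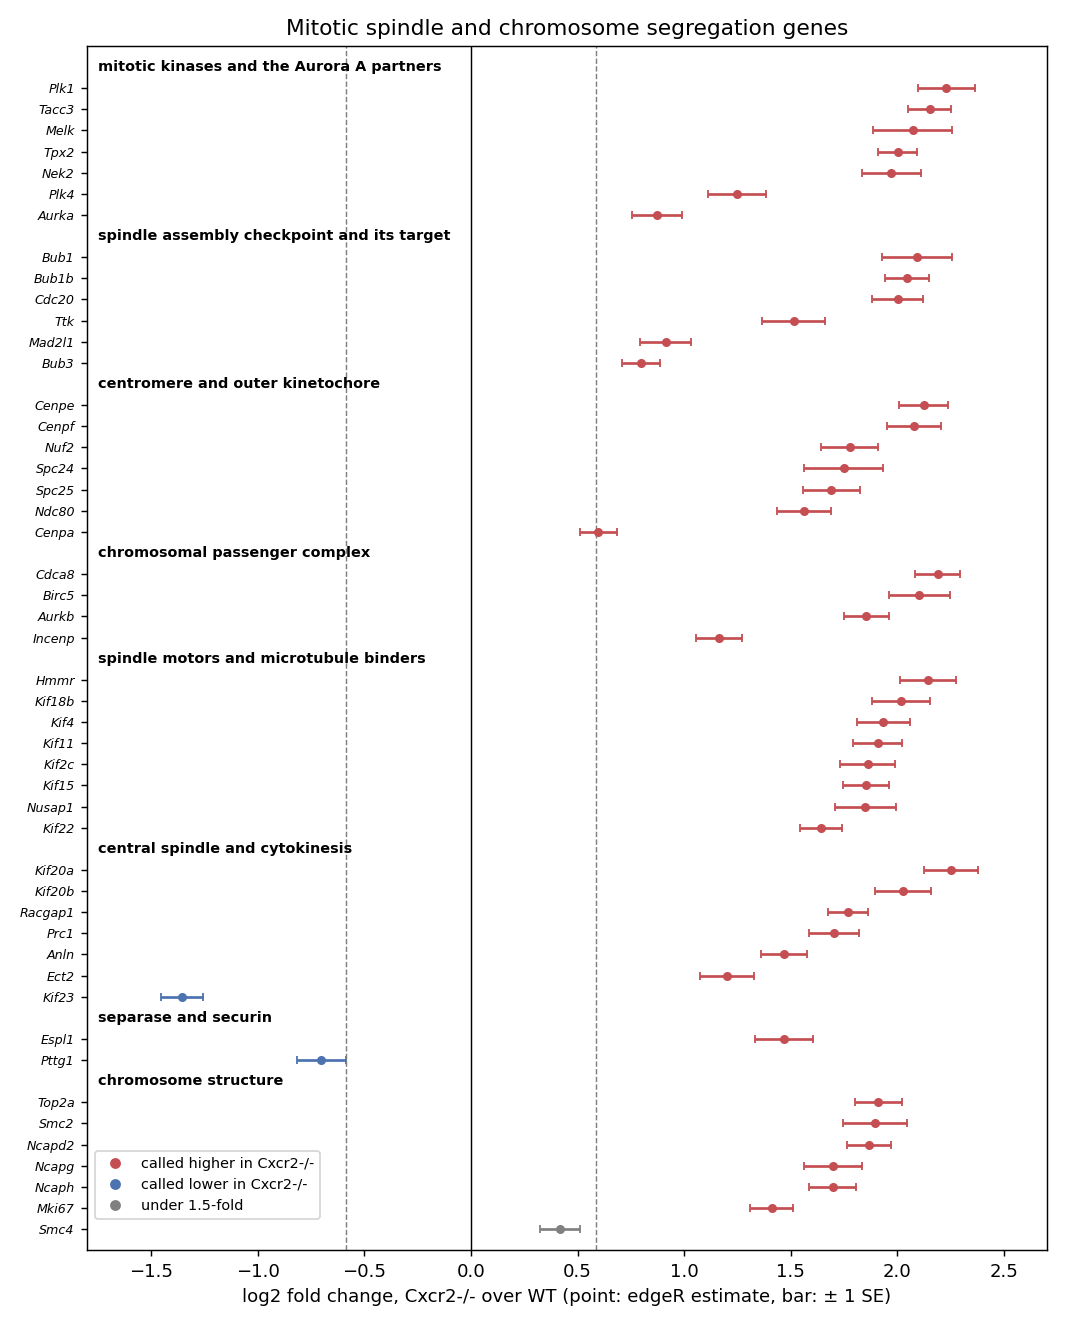
Log2 fold change of each of the 48 members, *Cxcr2-/-* over WT, ordered by role; points are edgeR estimates, bars ± 1 SE and dashed lines the 1.5-fold threshold. The 45 members called higher lie between 0.60 and 2.25, and *Kif23* (-1.36) and *Pttg1* (-0.70) lie on the other side of 0.

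Averaged over the 48 members as log2(CPM + 1), the level was 3.62 ± 0.08 (SD, n = 4) in WT and 5.10 ± 0.06 (SD, n = 4) in *Cxcr2-/-* libraries, a difference of 1.48. The WT libraries lay between 3.51 and 3.68 and the *Cxcr2-/-* libraries between 5.05 and 5.18. The members' summed level was 1043 to 1127 CPM in WT and 2332 to 2592 CPM in *Cxcr2-/-*. As a share of all counts on genes, the members made up 0.104% to 0.121% in WT and 0.211% to 0.2495% in *Cxcr2-/-* libraries. The mitotic transcripts were thus a small part of the RNA in both groups.

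All 7 genes of the mitotic kinases and the Aurora A partners rose, with a median log2 fold change of 2.002. TPX2 targets Aurora A to the spindle and activates it. *Tpx2* was at 12.7, 12.3, 12.3 and 11.1 CPM in WT replicates 1 to 4, and at 45.9, 51.6, 49.1 and 47.7 CPM in *Cxcr2-/-* replicates 1 to 4. The lowest *Cxcr2-/-* library stood well above the highest WT library, and the change was 4.01-fold (log2 2.002, SE 0.09, edgeR adjusted p = 3.49e-08). *Tacc3*, which encodes a microtubule-stabilizing protein that Aurora A phosphorylates, was at 8.45, 7.78, 8.74 and 7.32 CPM in WT and at 34.3, 34.2, 36.6 and 38.4 CPM in *Cxcr2-/-* (4.44-fold). PLK1 acts at centrosomes, kinetochores and the midbody. *Plk1* was at 6.52, 6.19, 4.41 and 5.61 CPM in WT and at 26.7, 25.3, 29.5 and 25.5 CPM in *Cxcr2-/-* (4.69-fold), among the 3 largest increases of the 48 members. *Nek2*, a centrosome-separating kinase, and *Melk*, a kinase of proliferating cells, rose 3.92-fold and 4.21-fold. The kinase *Aurka* itself rose less than its partners, 1.83-fold from 15.3 ± 2.04 to 27.9 ± 2.59 CPM (SD, n = 4), and *Plk4*, which starts centriole duplication, rose 2.37-fold.

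The spindle assembly checkpoint genes and their target *Cdc20* rose in 6 of 6 cases, with a median log2 fold change of 1.76. The increases were of different size within the checkpoint itself. *Bub1* and *Bub1b*, which encode the kinase BUB1 and the checkpoint protein BUBR1, rose 4.26-fold and 4.12-fold. *Ttk*, the MPS1 kinase at the top of the checkpoint, rose 2.86-fold. *Mad2l1*, which encodes the CDC20 inhibitor MAD2, rose 1.88-fold. BUB3 binds the kinetochore scaffold and brings BUB1 and BUBR1 there. *Bub3* was at 38.7, 33.1, 38.0 and 32.3 CPM in WT and at 64.5, 62.1, 60.8 and 59.4 CPM in *Cxcr2-/-*, a 1.74-fold change and the smallest of the group (log2 0.80, SE 0.09, edgeR adjusted p = 1.86e-05). *Cdc20* was at 9.68, 11.9, 8.82 and 10.6 CPM in WT and at 45.6, 42.6, 40.5 and 35.8 CPM in *Cxcr2-/-*, a 4.01-fold change. The 53 bases that *Cdc20* exons share with *Elovl1* on the other strand are the only annotated overlap in this group.

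At the centromere and outer kinetochore, 7 of 7 members rose, with a median log2 fold change of 1.75. CENP-E is a motor that carries chromosomes to the spindle equator, and *Cenpe* rose 4.36-fold. CENP-F is a large kinetochore protein made late in the cell cycle. *Cenpf* was at 15.1, 19.5, 16.4 and 13.2 CPM in WT and at 68.1, 77.7, 64.3 and 61.8 CPM in *Cxcr2-/-* (4.23-fold, log2 2.08, SE 0.13). The 4 subunits of the NDC80 complex, the main microtubule coupler, rose by similar factors, from 2.95-fold for *Ndc80* to 3.43-fold for *Nuf2*, with *Spc25* at 3.23-fold and *Spc24* at 3.36-fold. *Cenpa* encodes the histone H3 variant that marks the centromere. It was at 40.3, 47.0, 45.9 and 43.0 CPM in WT and at 63.0, 71.4, 68.7 and 63.3 CPM in *Cxcr2-/-*. The groups did not overlap, but this 1.51-fold change was the smallest among the 45 called members (log2 0.60, SE 0.09, edgeR adjusted p = 0.000138) and fell short of 1.5-fold under 9 of the 16 other settings tried, without WT replicate 1, *Cxcr2-/-* replicate 2 or *Cxcr2-/-* replicate 3 among them (log2 0.56, 0.57 and 0.57).

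The chromosomal passenger complex, which holds Aurora B and corrects wrong attachments, rose in all 4 genes. *Cdca8*, encoding borealin, was at 7.30, 7.07, 7.70 and 6.42 CPM in WT and at 34.4, 31.6, 34.6 and 29.3 CPM in *Cxcr2-/-* (4.56-fold, log2 2.19, SE 0.11, edgeR adjusted p = 5.29e-08). *Birc5*, encoding survivin, rose 4.30-fold and *Aurkb* 3.62-fold. The scaffold gene *Incenp* was at 23.4, 30.4, 30.8 and 25.2 CPM in WT and at 64.0, 59.7, 65.5 and 56.7 CPM in *Cxcr2-/-*. Per kilobase of exon it had the highest WT level of the complex (6.35 CPM per kb, the others 1.38 to 2.11), and its 2.24-fold increase was the smallest of the 4.

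The 8 spindle motors and microtubule binders rose within the narrowest range of the larger groups, from 3.12-fold for *Kif22*, a chromosome-arm motor, to 4.42-fold for *Hmmr*, which encodes a spindle-pole protein. The kinesin-5 motor KIF11 slides antiparallel microtubules apart to make the spindle bipolar. *Kif11* was at 17.6, 18.3, 19.1 and 14.3 CPM in WT and at 58.5, 75.8, 63.7 and 62.1 CPM in *Cxcr2-/-* (3.75-fold). *Kif15*, a motor that can back up KIF11, was at 14.8, 14.5, 15.2 and 12.96 CPM in WT and at 44.4, 59.96, 51.4 and 52.3 CPM in *Cxcr2-/-* (3.61-fold). In both motors the highest value came from *Cxcr2-/-* replicate 2 and the lowest *Cxcr2-/-* value from replicate 1. The chromokinesin *Kif4*, the microtubule depolymerases *Kif2c* and *Kif18b*, and *Nusap1*, which binds microtubules around chromosomes, rose from 3.60-fold to 4.05-fold.

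In the central spindle and cytokinesis group 6 of 7 members rose and *Kif23* fell. *Kif20a*, a kinesin needed for cytokinesis, was at 6.74, 6.29, 5.85 and 4.66 CPM in WT and at 26.9, 30.1, 29.3 and 26.3 CPM in *Cxcr2-/-*, the largest increase of all members (4.77-fold, log2 2.25, SE 0.13, edgeR adjusted p = 1.12e-07). Its exons overlap those of *Cdc23* on the other strand over 1271 bases. *Kif20b*, *Prc1*, which bundles central spindle microtubules, *Anln*, which anchors the contractile ring, and *Ect2*, the activator of RhoA at the equator, rose 4.08-fold, 3.25-fold, 2.77-fold and 2.30-fold. KIF23 and RACGAP1 together form centralspindlin, a complex that recruits ECT2, yet their transcripts moved in opposite directions. *Racgap1* was at 12.2, 12.3, 13.5 and 14.3 CPM in WT and at 45.5, 46.3, 43.8 and 42.3 CPM in *Cxcr2-/-* (3.41-fold higher, log2 1.77, SE 0.09). *Kif23* was at 205.6, 219.3, 181.4 and 235.6 CPM in WT and at 77.7, 82.3, 81.4 and 87.4 CPM in *Cxcr2-/-*. Its highest *Cxcr2-/-* library lay far under its lowest WT library (2.56-fold lower, log2 -1.36, SE 0.10, edgeR adjusted p = 6.35e-07). No annotated exon overlaps those of *Kif23* or *Racgap1* on either strand, and both promoters hold TTTGAA just after the start and a CCAAT box just before it, as printed above.

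Separase and its inhibitor also moved apart. Separase, encoded by *Espl1*, cuts cohesin at anaphase. *Espl1* was at 9.20, 9.77, 6.65 and 8.13 CPM in WT and at 26.8, 23.0, 23.3 and 20.5 CPM in *Cxcr2-/-* (2.77-fold higher, log2 1.47, SE 0.14). *Pttg1*, encoding securin, was at 50.1, 38.4, 36.3 and 43.9 CPM in WT and at 24.5, 23.8, 28.0 and 27.4 CPM in *Cxcr2-/-*. The groups did not overlap, and the decrease was 1.63-fold (log2 -0.70, SE 0.11, edgeR adjusted p = 0.0003). The *Pttg1* window held no TTTGAA and no CCAAT.

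Among the 7 genes of chromosome structure, 6 rose. Ki-67, the usual marker of cycling cells, coats mitotic chromosomes. *Mki67* was at 185.1, 229.2, 231.9 and 209.8 CPM in WT and at 545.3, 599.6, 572.2 and 557.4 CPM in *Cxcr2-/-* (2.66-fold, log2 1.41, SE 0.10). Topoisomerase II alpha untangles sister chromatids. *Top2a* was at 58.7, 60.1, 59.8 and 47.4 CPM in WT and at 202.9, 244.8, 197.1 and 205.0 CPM in *Cxcr2-/-* (3.76-fold). Condensin folds the chromosome, and its subunits *Smc2*, *Ncapd2*, *Ncapg* and *Ncaph* rose 3.72-fold, 3.64-fold, 3.24-fold and 3.24-fold. The partner of SMC2 in the same complex was the exception. *Smc4* was at 98.6, 101.1, 98.0 and 96.0 CPM in WT and at 111.8, 140.9, 130.9 and 141.7 CPM in *Cxcr2-/-*. These groups did not overlap, and the 1.33-fold difference had an edgeR adjusted p of 0.00291 (log2 0.42, SE 0.09) but stayed under the fold threshold.

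Compared per kilobase of exon, the WT and *Cxcr2-/-* cells differed in which mitotic transcripts led. In WT, *Kif23* was the most abundant member (26.6 CPM per kb), followed by *Mki67* (21.3), *Pttg1* (21.1) and *Smc4* (18.9), and the median member was far lower at 1.57. In *Cxcr2-/-* cells, *Mki67* led (56.5 CPM per kb), followed by *Smc4* (25.2), *Top2a* (23.6) and *Cdc20* (22.0), and *Kif23* ranked 10 of 48 (10.4). These levels use the union of annotated exons and so depend on the annotation. The 8 members with a WT mean of at least 20 CPM, *Bub3*, *Cenpa*, *Incenp*, *Kif23*, *Pttg1*, *Top2a*, *Smc4* and *Mki67*, had a median log2 fold change of 0.70. The 40 members under 20 CPM in WT had a median of 1.86, and their range, 0.87 to 2.25, held no decrease. The fold change and the WT level share the WT values, so this is a description only.

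**Figure D2:**
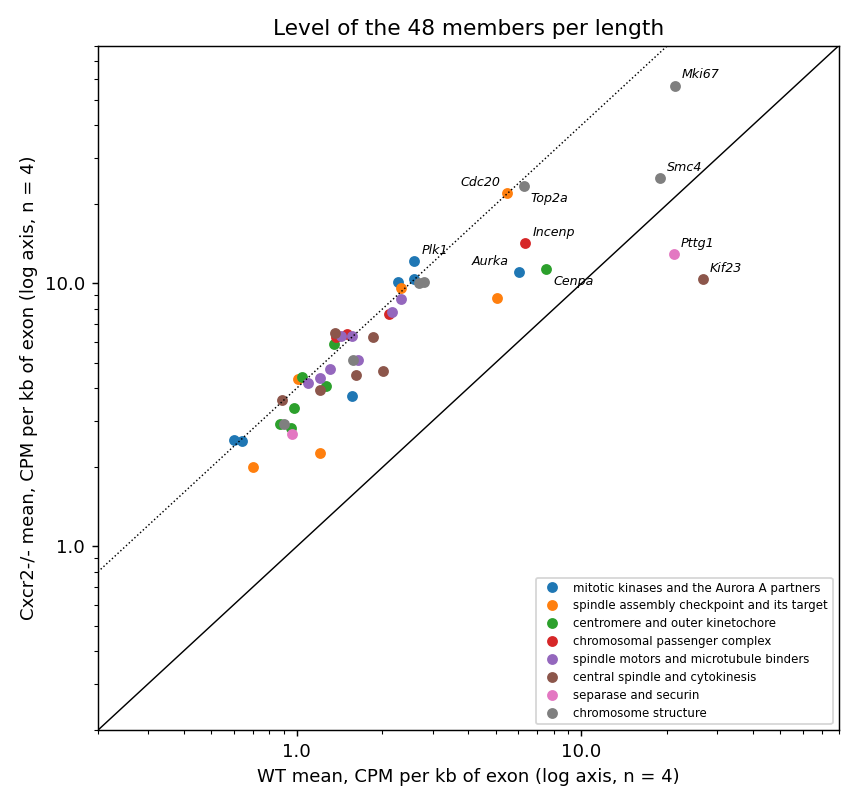
Mean level of each member in WT (x axis) against *Cxcr2-/-* (y axis), both in CPM per kb of exon on log axes, n = 4 mice per group, coloured by role; the solid line marks equal levels and the dotted line a 4-fold increase. Most members lie near the dotted line, while *Kif23* (26.6 and 10.4) and *Pttg1* (21.1 and 12.97) lie under the line of equal levels.

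Ratios between partners, taken per kilobase within each library, show where the subunits of one complex changed unequally. These pairs were chosen after the values of their members were seen, and no test was run on them. *Kif23* over *Racgap1* was 12.1 to 15.9 in WT and 1.53 to 1.85 in *Cxcr2-/-* libraries. *Pttg1* over *Espl1* was 17.2 to 23.9 in WT and 4.003 to 5.85 in *Cxcr2-/-*. *Smc4* over *Smc2* was 6.21 to 9.83 in WT and 2.35 to 2.69 in *Cxcr2-/-*. In each of these pairs the excess of the first partner was smaller in every *Cxcr2-/-* library than in any WT library. *Aurka* over *Tpx2* went the same way, from 1.88 to 2.63 in WT to 0.927 to 1.18 in *Cxcr2-/-*, as did *Bub3* over *Bub1*, from 3.99 to 5.53 to 1.72 to 2.90. *Aurkb* over *Incenp* was higher in *Cxcr2-/-* (0.528 to 0.548) than in WT (0.283 to 0.398). Other pairs kept ratios that overlapped between the groups. *Ndc80* over *Nuf2* was 0.811 to 1.08 in WT and 0.733 to 0.903 in *Cxcr2-/-*, *Birc5* over *Cdca8* 0.973 to 1.19 and 0.981 to 1.12, and *Ncapg* over *Ncaph* 0.463 to 0.674 and 0.5004 to 0.660. *Spc24* over *Spc25* also overlapped (0.497 to 0.985 and 0.656 to 0.815).

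**Figure D3:**
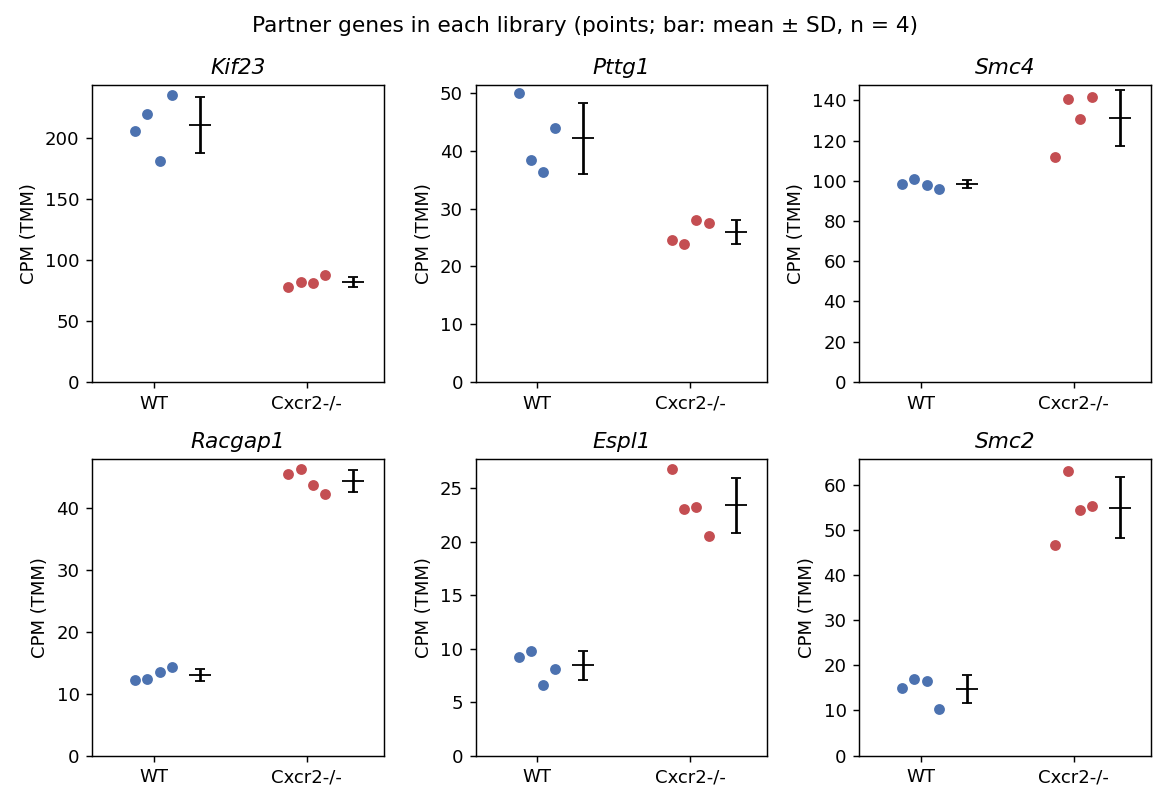
Level of 3 partner pairs in each library, in TMM-scaled CPM on linear axes from 0; points are mice and bars the mean ± SD, n = 4 per group. *Kif23* and *Pttg1* (top) are lower in every *Cxcr2-/-* mouse while their partners *Racgap1* and *Espl1* (below) are higher, and *Smc4* rises 1.33-fold against 3.72-fold for *Smc2*.

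The promoter letters did not separate the members by their change. The 30 members with TTTGAA in the window had log2 fold changes from -1.36 to 2.23 with a median of 1.81, and the 12 without it from -0.70 to 2.15 with a median of 1.91. The decreasing members were split between both sets, *Kif23* with the element and *Pttg1* without.

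The mice of a group resembled each other in these genes. The highest *Cxcr2-/-* library was above the lowest by a median of 1.20 times over the 48 members and by at most 1.55 times, for *Bub1*. The corresponding values in WT were 1.30 and 1.71. Over all genes tested, lowly expressed ones included, the medians were 1.48 and 1.42. Small shifts were shared between members, since *Cxcr2-/-* replicate 2 gave the highest *Cxcr2-/-* value for 25 of the 48 members and replicate 1 the lowest for 22. In WT, replicate 4 gave the lowest value for 28 members and replicate 2 the highest for 20.

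Primary granule genes are expressed in dividing precursors, and 4 of them differed more between the mice of a group than the members did. *Mpo*, *Elane*, *Prtn3* and *Ctsg* summed to 2.40 to 12.5 CPM in WT, and to 53.4, 54.7, 207.7 and 351.1 CPM in *Cxcr2-/-* replicates 1 to 4. The members' sum, by contrast, was 2332, 2592, 2426 and 2381 CPM in the same mice. The highest over the lowest WT library was 5.20 for the granule genes and 1.08 for the members. Among the *Cxcr2-/-* libraries it was 6.58 and 1.11. S phase genes, which copy the DNA before mitosis, lay between the other sets at 607, 609, 757 and 833 CPM (1.37), against 385 to 416 CPM in WT. Without *Cxcr2-/-* replicates 3 and 4, a choice made after these sums were seen, 45 members were called higher and 2 lower, and the difference of the member mean was 1.49. The 4 granule genes belong to a list of 10 genes of dividing precursors. The others of that list spanned less in *Cxcr2-/-*, from 1.23 times for *Tuba1b* to 2.04 times for *Ms4a3*. *Cebpe* (251.9, 187.3, 165.2 and 138.5 CPM), *Gfi1* and *Hmgn2* were highest in replicate 1. *Ms4a3* and *Fcnb* were highest in replicate 4, as the granule genes were.

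**Figure D4:**
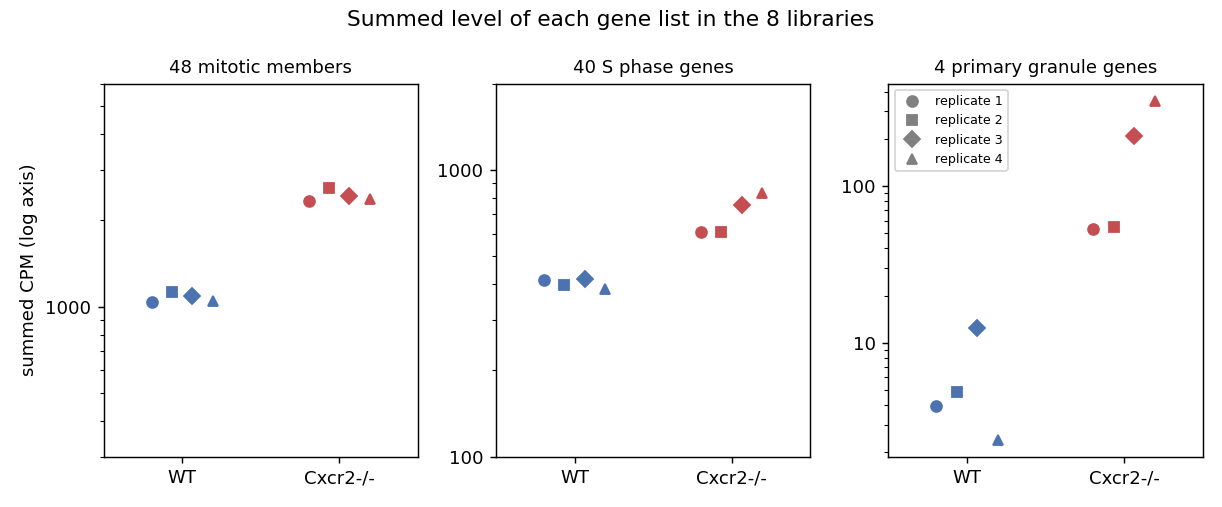
Summed level of the 48 members, of 40 S phase genes and of 4 primary granule genes (*Mpo*, *Elane*, *Prtn3*, *Ctsg*) in each of the 8 libraries, in TMM-scaled CPM on log axes; symbols mark the replicate and colours the group. The *Cxcr2-/-* mice span 1.11 times for the members and 6.58 times for the granule genes, and the WT mice 1.08 and 5.20 times.

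The rest of the mitotic machinery was followed in 5 further lists, 112 genes in all, and 77 of these were called higher and 1 lower, against 15.7% in each direction over all genes tested. Their median log2 fold change was 1.04. Among mitotic entry regulators, 14 of 16 rose (median 1.59). Cyclin B1, the partner of CDK1, showed the largest change there, with *Ccnb1* at 5.15 to 6.45 CPM in WT and 28.7 to 31.5 CPM in *Cxcr2-/-* (log2 2.38, SE 0.11). Of the inner kinetochore and its outer scaffold, 27 of 33 genes rose (median 1.28), led by *Cenpt* (log2 2.14, SE 0.19). Of the centrosome and spindle pole genes, 23 of 31 rose (median 1.23), led by *Kif14*, a cytokinesis kinesin (log2 2.25, SE 0.12). The decrease was in *Haus8*, a subunit of the microtubule-branching augmin complex, at 54.5 to 64.1 CPM in WT and 22.4 to 27.2 CPM in *Cxcr2-/-* (log2 -1.33, SE 0.10). *Haus8* is named here because it was the exception.

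Some of the listed complexes also serve cells outside mitosis. The anaphase-promoting complex list had 9 of 17 genes higher (median 0.63), and its largest change was in *Ube2c*, the ubiquitin-conjugating enzyme of that complex (log2 2.56, SE 0.17). Of cohesin and its regulators, which also shape interphase chromatin, 4 of 15 rose (median 0.30), led by *Sgo2a*, a protector of centromeric cohesin (log2 1.66, SE 0.20). The core cohesin genes *Smc1a*, *Smc3*, *Rad21* and *Stag2*, named after their values were seen, were not called, but they differed among themselves. *Smc1a* was at 64.6 to 71.8 CPM in WT and 95.9 to 102.3 CPM in *Cxcr2-/-* (log2 0.56, SE 0.08, edgeR adjusted p = 0.000103), and *Rad21* at 120.4 to 137.98 and 177.5 to 209.9 CPM (log2 0.58, SE 0.09, edgeR adjusted p = 0.000246). Both passed the adjusted p without overlap between the groups and lay just under 1.5-fold. *Smc3* was at 37.0 to 40.7 and 40.2 to 49.4 CPM (log2 0.22, edgeR adjusted p = 0.0644), and *Stag2* at 341.4 to 391.8 and 295.4 to 388.5 CPM (log2 -0.11, edgeR adjusted p = 0.447). Of 40 S phase genes, 32 were called higher (median 1.20) and 0 lower by edgeR or DESeq2, with 2 lower at an unadjusted p under 0.05 in edgeR. These exceptions were *Pcna* (log2 -0.43, edgeR adjusted p = 0.0584) and *Rpa2* (log2 -0.54, edgeR adjusted p = 0.0503). *Pcna* was at 30.4, 33.1, 51.0 and 56.4 CPM in *Cxcr2-/-* replicates 1 to 4, and *Rpa2* at 9.25, 8.38, 17.1 and 15.6 CPM. The largest S phase change was in *Gins1*, which encodes a subunit of the replicative helicase (log2 2.35, SE 0.50). The difference between these lists and the 48 members was not tested.

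Markers of the sorted cells and of other cell types moved in the same comparison, and their part in the members' change was not tested. The neutrophil list summed to 31674 to 45398 CPM in WT and 71058 to 86716 CPM in *Cxcr2-/-*, with 5 of 9 genes higher and 2 lower (*Csf3r* and *Cxcr4*), and its most abundant gene *S100a9* was at 9789 to 15652 and 26973 to 38448 CPM. *Ly6g*, the marker of the sort, was at 166.3 to 262.9 CPM in WT and 488.3 to 596.8 CPM in *Cxcr2-/-*. Both groups thus expressed the neutrophil markers of the gate. Genes of dividing neutrophil precursors were higher in 10 of 10 cases (308.4 to 376.0 and 874.2 to 1082 CPM), against 15.7% of all genes tested. A large part of this sum was *Hmgn2* alone (179.5 to 227.6 and 397.9 to 550.3 CPM). Genes of late precursors were higher in 7 of 7 (23378 to 28475 and 54621 to 79167 CPM, led by *Ltf*), against the same 15.7%. The B cell list was lower in 8 of 10 genes (89.8 to 194.4 and 36.4 to 87.3 CPM, led by *Ighm*). The dendritic cell list summed to 485.7 to 719.4 CPM in WT and 114.4 to 165.3 CPM in *Cxcr2-/-*. Most of this sum was *Itgax* alone (476.6 to 690.8 and 107.1 to 156.6 CPM). Of the 5 tested genes of the list 3 were lower, *Itgax* among them. *Siglech* and *Xcr1*, 2 of its 6 genes, were under 1 CPM in every library. Macrophage and monocyte genes were higher in 2 and lower in 2 of 10 cases (754.7 to 880.5 and 889.8 to 1037 CPM, led by *Ly6c2*). The 2 higher genes were *Ly6c2*, at 572.8 to 663.1 CPM in *Cxcr2-/-*, and *Ccr2*, which differed between these mice. *Ccr2* was at 4.34 to 9.06 CPM in WT and at 7.48, 8.85, 34.4 and 45.7 CPM in *Cxcr2-/-* replicates 1 to 4. T and NK cell genes were higher in 1 of 7 (86.8 to 114.4 and 97.0 to 141.1 CPM). Most of this sum was *Cd3d* alone (80.1 to 110.1 and 87.3 to 135.5 CPM). Of that list, 4 of 9 genes were under 1 CPM in every library, *Cd3e* and *Thy1* among them. The plasma cell list summed to 90.8 to 108.2 CPM in WT and 141.3 to 158.1 CPM in *Cxcr2-/-*, without overlap, and most of it was *Xbp1* (90.1 to 104.9 and 136.02 to 154.4 CPM, log2 0.56, edgeR adjusted p = 0.000205). Of its 4 tested genes 1 was called higher, *Jchain* (0.347 to 2.43 and 2.705 to 6.49 CPM, log2 1.44, edgeR adjusted p = 0.0155), and 3 were higher and 0 lower at an unadjusted p under 0.05. The other 4 genes of that list, *Mzb1* and *Sdc1* among them, were under 1 CPM in every library. Eosinophil and basophil genes were higher in 2 and lower in 1 of 4 (49.1 to 69.5 and 37.7 to 64.4 CPM, led by *Siglecf*). Erythroid genes, from other cells that divide in the spleen, were low. Of 6 tested, 0 were called by edgeR or DESeq2 and 0 had an unadjusted p under 0.05 in edgeR. Of the list, 6 of 10 were under 1 CPM in every library, *Klf1* and *Epor* among them, and the list summed to 19.8 to 28.9 and 18.7 to 36.6 CPM, most of it *Tfrc*, which other dividing cells also express. Stem and progenitor genes were called in 0 of 2 cases by edgeR or DESeq2 (0 at an unadjusted p under 0.05), with *Cd34* and *Meis1* among 5 of 6 genes under 1 CPM and *Kit* as the most abundant (16.1 to 38.1 and 20.5 to 38.3 CPM for the list). Megakaryocyte genes were called in 0 of 2 cases by edgeR or DESeq2 (1 at an unadjusted p under 0.05), with *Pf4* and *Ppbp* among 3 of 5 under 1 CPM (5.92 to 7.94 and 4.07 to 6.62 CPM, led by *Itga2b*).

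Exons of 11 members overlap an annotated gene on the other strand, and those of *Top2a* and *Ncapd2* overlap small RNA or unnamed genes on the same strand. Besides *Kif20a*, the longest overlaps were those of *Ncapg* with *Lcorl* (944 bases), *Prc1* with *Rccd1* (911 bases) and *Kif4* with *Pdzd11* (832 bases). *Kif4* and *Kif22* also have annotated pseudogenes. The strand setting of the counting was not given in the sources used here, so reads of these members and their neighbours are uncertain.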

How the data were processed

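Spleen neutrophils of 4 WT and 4 *Cxcr2-/-* mice were profiled by RNAseq. Ribosomal RNA was depleted and directional libraries were sequenced from both ends. After trimming, the authors used STAR for alignment to mm10 and HTSeq for counting. They deposited whole-number counts per gene, not normalized. The strand setting and annotation release were not given in the sources used here. The 5 rows of counting totals in each file, which name no gene, held 42.4% to 53.6% of all entries and were left out. Gene symbols came from GENCODE release 21 for mouse (GRCm38): 52133 of 55414 identifiers matched, 35 with the same version number, so exon lengths and overlaps may differ from those counted.

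Counts were tested in R 4.3.3 with edgeR 4.0.16 (quasi-likelihood, TMM, filterByExpr, Benjamini-Hochberg), as 4 *Cxcr2-/-* against 4 WT libraries without further covariates. A call needed an adjusted p under 0.05 and at least 1.5-fold, the thresholds of the study. SE is the log2 fold change divided by the root of the F statistic. CPM is TMM-scaled and the member mean uses a pseudocount of 1. The steps were tested on simulated data. The biological coefficient of variation was 0.202, and each count carries counting error in addition to it. Alternatives were DESeq2 1.42.0, 3 other scalings, other filters, fold thresholds and pseudocounts, the replicate block and leaving out each library.

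The members, the lists and the tests were chosen with earlier results of these data known. Values of every library are given for the 2 most abundant members of each role, the 3 largest and 3 smallest signed changes and members against the common direction. Of each pathway list the gene with the largest change is named, and of each marker list the most abundant. Promoters are printed for up to 5 such members with TTTGAA. RefSeq windows were held for 42 members. Replicates are separate animals, and the numbers of WT and *Cxcr2-/-* mice do not pair them. No per-sample column was left unmapped. Of the listed symbols, 1 mitotic entry, 1 neutrophil precursor and 1 erythroid symbol had no matching identifier, and 1 further marker gene is not reported here.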

Additional observations from a re-analysis of the deposited data

Results flagged for a closer look

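Single libraries stood apart from the other 3 of their group in 7 of 98 member and summary groups tested with Dixon's test, where chance gives about 1 in 20. *Cxcr2-/-* replicate 1 was lowest for *Mad2l1* (15.2 CPM, the others 19.9 to 20.8) and for *Ndc80* (16.4 CPM, the others 18.7 to 19.1). *Cxcr2-/-* replicate 2 was highest for *Nusap1* (37.8 CPM, the others 29.1 to 29.8) and for *Top2a* (244.8 CPM, the others 197.1 to 205.0). WT replicate 4 was lowest for *Top2a* (47.4 CPM, the others 58.7 to 60.1) and for *Kif4* (4.86 CPM, the others 6.37 to 6.49). WT replicate 3 was highest for *Ttk* (3.93 CPM, the others 3.26 to 3.34). All 6 genes remained called higher without any 1 library.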

How the results depend on the processing

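Of 768 values, 48 members under 16 other settings, 759 kept their direction and their side of the thresholds, 9 fell under 1.5-fold, all of them for *Cenpa*, and 0 reversed. With *Cenpa* under the threshold, 44 members were called higher with DESeq2, RLE, upper-quartile or total-count scaling, no filter, or at least 10 counts in every library. The members called lower were 1 (*Kif23*) at 2-fold. All genes called higher were 3969 with no fold threshold and 1255 at 2-fold, and those called lower 1599 at 2-fold. Other mitotic genes called lower were 2 under upper-quartile scaling, total-count scaling and at least 10 counts (*Haus8* and *Mau2*), and 3 with no fold threshold (these and *Esco1*). The difference of the member mean was 1.59 and 1.60 with pseudocounts of 0.1 and 0.01, 1.37 under upper-quartile and 1.40 under total-count scaling. Leaving out each library gave 44 to 45 members higher, 2 lower, 1 to 2 other mitotic genes lower (2 without WT replicate 3 or *Cxcr2-/-* replicate 1) and a difference of 1.45 to 1.504. The causes were not tested.

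With the replicate block, 45 members were called higher and 2 lower, 77 other mitotic genes higher and 30 S phase genes higher. Same-numbered mice share only a number: their deviations correlated at r = 0.15, -0.19, 0.24 and -0.31. Low members, down to 48 counts in a library, carry the most counting error.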
